A study of Mus musculus with 17 samples.

Results

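Sialic acid-adding enzymes and other glycan-building enzymes were followed by their transcripts in mouse CD4 T cells. The 10 genes are St8sia6, St8sia4, St3gal6, St3gal2, St6gal1, B3gnt5, Gcnt1, Gcnt2, Fut7 and Csgalnact1. They are 10 of the 18194 genes named on the array, and the platform's gene table assigns them 30 of its 45101 probe sets. St8sia6, St3gal6, St3gal2, B3gnt5 and Csgalnact1 were picked because their levels on these arrays changed with culture or with the sort, so their values are a description without a test. The other 5 genes were tested, but they too were chosen with earlier results of these data known.

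The arrays come from a pair of culture experiments on the effect of retinoic acid (RA), which vitamin A is turned into, and of gut dendritic cells (DC) on T cells. In the co-culture experiment, CD4+Foxp3- T cells from spleens of C57BL/6-Foxp3/GFP mice were kept for 5 days with 1 DC per 10 T cells, anti-CD3 (1 µg/ml) and TGFbeta (0.6 ng/ml), and IL-2 (5 ng/ml) was given on days 2 and 4. The DC came from the lamina propria of the gut (LP-DC), from the spleen with 100 nM RA (Sp-DC plus RA), or from the spleen without it (Sp-DC). Each culture was then sorted by GFP, which reports the regulatory T cell factor Foxp3, into Foxp3+ and Foxp3- cells. Of these 6 groups, 5 have 2 arrays each. Foxp3- cells from Sp-DC plus RA have 1, and a second array of theirs is not analysed here. In the memory experiment, CD4+ T cells of C57BL/6 mice sorted as memory cells by surface markers, CD44hi and CD25- among them, from spleen and lymph nodes and congenically marked, were cultured with naive CD4+ T cells at a ratio of 2 to 1. Beads with anti-CD3 and anti-CD28, IL-2 (20 U/ml) and TGFbeta (10 ng/ml) were present for 48 hours, with 100 nM RA or without it, and the memory cells were sorted back by the congenic marker (3 arrays with RA, 3 without). Every array holds cells pooled from 3 male mice of 6 to 10 weeks. The labels do not say that pools of different arrays came from separate cultures, so p-values measure the spread between these arrays.

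Glycans are built on proteins and lipids of the cell surface by enzymes that each add a given sugar in a given linkage. Sialyltransferases cap chains with sialic acid, the ligand of the inhibitory Siglec receptors, while branching enzymes and fucosyltransferases decide whether a capped chain becomes sialyl Lewis x, the selectin ligand through which effector T cells leave the blood. Chondroitin sulfate chains, built by a separate set of enzymes, make proteoglycans of the surface and of secretory granules. Resting and activated T cells are known to carry different sets of these caps.

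Values are log2 of the deposited intensity, on which each array's median lay between 5.88 and 5.98, and differences are log2 differences. Of the 8 CD4 T cell markers 7 were measured, and all of these lay above the array median on all 17 arrays. The Foxp3 probe set read 3.88 to 4.53 on the 11 co-culture arrays, under the array median on each, so it does not check the sort. On the 6 memory arrays it read 7.08 to 9.14, above the array median on each. The summed intensity of the 6 regulatory T cell markers was 15252 to 16973 in Foxp3+ and 6362 to 7948 in Foxp3- cells of the LP-DC culture, 11184 to 11256 in Foxp3+ and 7040 in Foxp3- cells with Sp-DC plus RA, and 9700 to 13898 in Foxp3+ and 7497 to 7959 in Foxp3- cells with Sp-DC. In memory cells the sum varied widely between arrays, from 4841 to 12187 with RA and from 4844 to 13475 without it. The labels number the arrays, and arrays of the same number deviated together, so every test is given from a pair of limma fits: one without the number (unpaired) and one with it as a block (paired). A gene is said to rise or fall only where it passed an adjusted p of 0.05 in at least the paired fit. All 10 genes passed the filter on low values in both experiments. The differences between cultures that share arrays are not independent of each other.

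**Figure D1:**
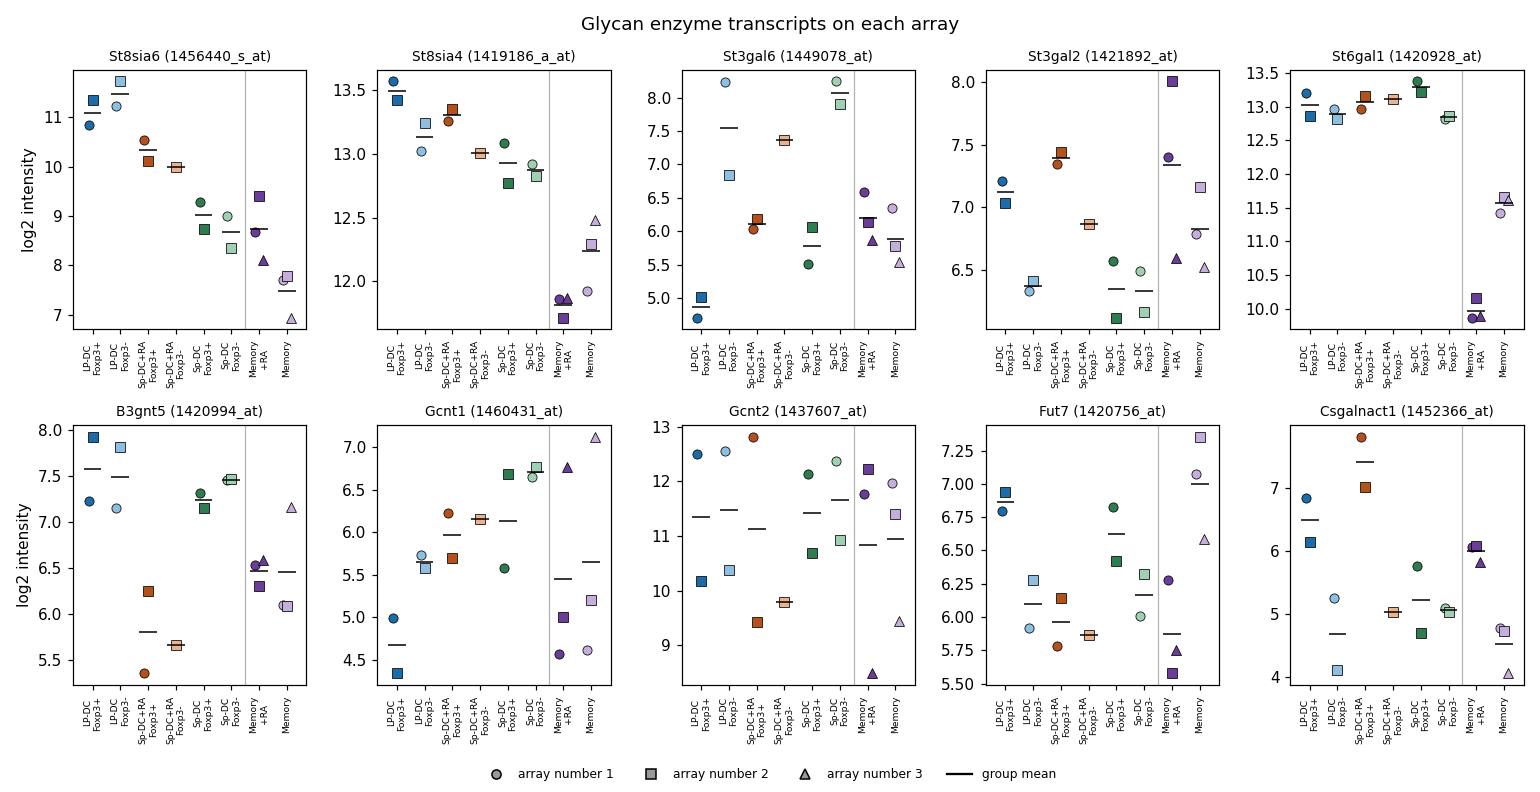
Log2 intensity (vertical axes, each with its own range) of 1 probe set of each of the 10 genes on the 17 arrays. Points are arrays, shaped by array number, bars are group means, and the vertical line separates the co-culture groups from the memory groups. In the co-culture St8sia6 lay highest with LP-DC, next with Sp-DC plus RA and lowest with Sp-DC. St6gal1 was near 13 on the co-culture arrays and at 9.87 to 11.65 on the memory arrays. Levels of the experiments may not be comparable, since no source says whether they were normalized together.

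St8sia6, which adds a further sialic acid in alpha-2,8 linkage, chiefly on O-glycans, was higher with RA and with LP-DC in each cell population compared. Its probe set with the strongest signal (1456440_s_at) read 10.84 and 11.34 in Foxp3+ cells of the LP-DC culture, 10.54 and 10.11 with Sp-DC plus RA, and 9.29 and 8.73 with Sp-DC. These groups do not overlap, and the differences of the means were 2.09 for LP-DC over Sp-DC (4.24-fold) and 1.32 for RA (2.49-fold). In Foxp3- cells the values were 11.22 and 11.72 with LP-DC, 9.98 on the 1 array with Sp-DC plus RA, and 9.0 and 8.34 with Sp-DC, and LP-DC exceeded Sp-DC by 2.80 (6.96-fold). In memory cells St8sia6 read 8.67, 9.41 and 8.10 with RA, against 7.71, 7.78 and 6.94 without it, a difference of 1.25 (2.38-fold) in which all 3 pairs of arrays of the same number ran the same way, by 0.96 to 1.63.

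By group mean the order of St8sia6 in the co-culture was Foxp3- with LP-DC (11.47), Foxp3+ with LP-DC (11.09), Foxp3+ with Sp-DC plus RA (10.32), Foxp3- with Sp-DC plus RA (9.98), Foxp3+ with Sp-DC (9.01) and Foxp3- with Sp-DC (8.67). The first 2 groups in that order overlap, and so do the last 2, while the 1 Foxp3- array with Sp-DC plus RA lay under both Foxp3+ arrays of that culture. No array of one culture overlapped those of another. The sort difference was below 0 in both LP-DC pairs (-0.38 and -0.37) and above 0 in both Sp-DC pairs (0.39 and 0.29). The other probe sets gave the same order of cultures. The probe set 1456147_at differed by 1.92 for LP-DC over Sp-DC and 1.17 for RA in Foxp3+ cells, and by 1.46 for RA in memory cells. The weakest (1438566_at), which lay under the array median on all 6 memory arrays, gave 1.15, 0.80 and 0.30.

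Genes listed as markers of other cells also moved with the cultures. The summed intensity of the 11 DC and macrophage markers measured was 1155 to 1458 over the 4 LP-DC arrays and 1696 to 2840 over the 7 arrays with Sp-DC, with or without RA, and 7 of the 11 were above the array median in each co-culture group. Itgax, H2-Aa, Xcr1 and Lyz2 lay under the array median on all 17 arrays. The widest ranges on the co-culture arrays were those of H2-Ab1 (8.85 to 10.78) and Adgre1 (6.96 to 8.97), so the sum mostly follows these. The 6 CD8 T and NK cell markers summed to 2074 to 2196 in Foxp3+ cells with Sp-DC plus RA, against 4655 to 5318 with Sp-DC, and to 925 to 1335 in memory cells with RA, against 419 to 664 without it. Cd8b1 and Ncr1 of that list lay under the array median on all 17 arrays. On the co-culture arrays its highest values were those of Nkg7 (9.62 to 12.13) and Klrd1 (7.42 to 11.53), which weigh most in the sum where it is high. Cd8a did not exceed 7.01 there. The part of the marker genes in the differences between cultures was not tested. In RNA of sorted pools fewer cells with a transcript and less of it per cell cannot be told apart.

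Because RA acts through nuclear receptors that bind paired hexamers of the AGGTCA type, the RefSeq promoter windows (build GRCm38.p6, 250 bases before to 50 after a gene start) were searched on both strands for AGGTCA and for its variants AGTTCA and GGGTCA, as well as for GGTTCA. Windows were found for 8 of the 10 genes, 16 in all, and 5 of the 16 (31.3%) hold such a hexamer, against 43.7% of the 32851 windows of the table, in which AGGTCA alone is in 16.3%. A pair of AGGTCA hexamers 5 bases apart in the same direction is in 3 windows of the table and in none of the 16. The window of St8sia6, which like St3gal2 was higher with RA by the group mean in all 3 populations, is shown because it holds none of these hexamers. Such a match describes letters in a window and is not a binding site. It lies at chr2:13793471-13793770 on the minus strand.
St8sia6: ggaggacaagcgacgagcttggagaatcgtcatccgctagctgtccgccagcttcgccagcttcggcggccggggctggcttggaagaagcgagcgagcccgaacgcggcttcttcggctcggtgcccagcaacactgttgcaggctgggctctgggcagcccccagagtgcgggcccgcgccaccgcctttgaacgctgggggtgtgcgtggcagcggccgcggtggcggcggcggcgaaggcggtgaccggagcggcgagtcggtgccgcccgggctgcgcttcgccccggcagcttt

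St8sia4, the polysialyltransferase that extends alpha-2,8-linked sialic acid into long chains (1419186_a_at), read 13.57 and 13.42 in Foxp3+ cells with LP-DC, 13.26 and 13.35 with Sp-DC plus RA, and 13.09 and 12.77 with Sp-DC. The values of the cultures do not overlap, but the difference of LP-DC over Sp-DC did not pass (0.57 ± 0.15 SE, limma adjusted p = 0.0814 paired and 0.407 unpaired), nor did that of RA (0.38 ± 0.15, adjusted p = 0.336 paired). In Foxp3- cells it read 13.02 and 13.25 with LP-DC, 13.01 with Sp-DC plus RA, and 12.92 and 12.83 with Sp-DC. In memory cells it ran the other way, at 11.86, 11.72 and 11.87 with RA, against 11.93, 12.29 and 12.48 without it (-0.42 ± 0.15, adjusted p = 0.186 paired). The difference between the RA effects of memory and Foxp3+ cells, -0.80 ± 0.22, did not pass either (limma over all 17 arrays, adjusted p = 0.108 paired).

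St3gal6, which adds alpha-2,3-linked sialic acid to N-acetyllactosamine and in mice takes part in making selectin ligands, was lower in Foxp3+ than in Foxp3- cells of each culture. Its probe set with the widest range (1449078_at) read 4.71 and 5.01 in Foxp3+ cells, against 8.24 and 6.85 in Foxp3- cells, with LP-DC. With Sp-DC plus RA it read 6.04 and 6.19 in Foxp3+ cells, against 7.37 in Foxp3- cells, and with Sp-DC 5.51 and 6.07 in Foxp3+ cells, against 8.24 and 7.91 in Foxp3- cells. No Foxp3+ array reached the lowest Foxp3- array, and the differences were -2.68 with LP-DC (6.41-fold lower), -1.26 with Sp-DC plus RA (2.39-fold lower) and -2.29 with Sp-DC (4.88-fold lower). The LP-DC Foxp3+ values lie about 1 log2 unit under the array median, near background, so that the difference there may be understated.

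Among Foxp3+ cells, St3gal6 was lower with LP-DC than with Sp-DC plus RA (-1.25) and than with Sp-DC (-0.92), and the arrays of these groups do not overlap. With RA the memory cells differed by 0.30, with overlapping groups but all 3 pairs higher with RA (0.23 to 0.35), where the values were 6.58, 6.14 and 5.87 with it, against 6.35, 5.79 and 5.54 without it. The summed CD8 T and NK cell markers were lower in Foxp3+ cells too: 2174 to 2398, against 4636 to 5722 in Foxp3- cells, with LP-DC, 2074 to 2196 in Foxp3+ against 3334 in Foxp3- cells with Sp-DC plus RA, and 4655 to 5318 in Foxp3+ against 6721 to 7310 in Foxp3- cells with Sp-DC. Nkg7 and Klrd1 weigh most in this sum where it is high, and the part of these markers in the St3gal6 difference was not tested.

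The 5 probe sets of St3gal6 did not all move. A second one (1449079_s_at) gave sort differences of -1.70 with LP-DC, -0.53 with Sp-DC plus RA and -1.38 with Sp-DC. The probe set 1447841_x_at, whose suffix marks probes that also match other sequences, has the highest mean of the 5 and stayed between 6.66 and 7.62 on all 17 arrays, and the other 2 read 3.90 to 5.89 and 2.40 to 4.79, at or under the array median. The gene's difference therefore rests on 2 of its 5 probe sets.

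**Figure D2:**
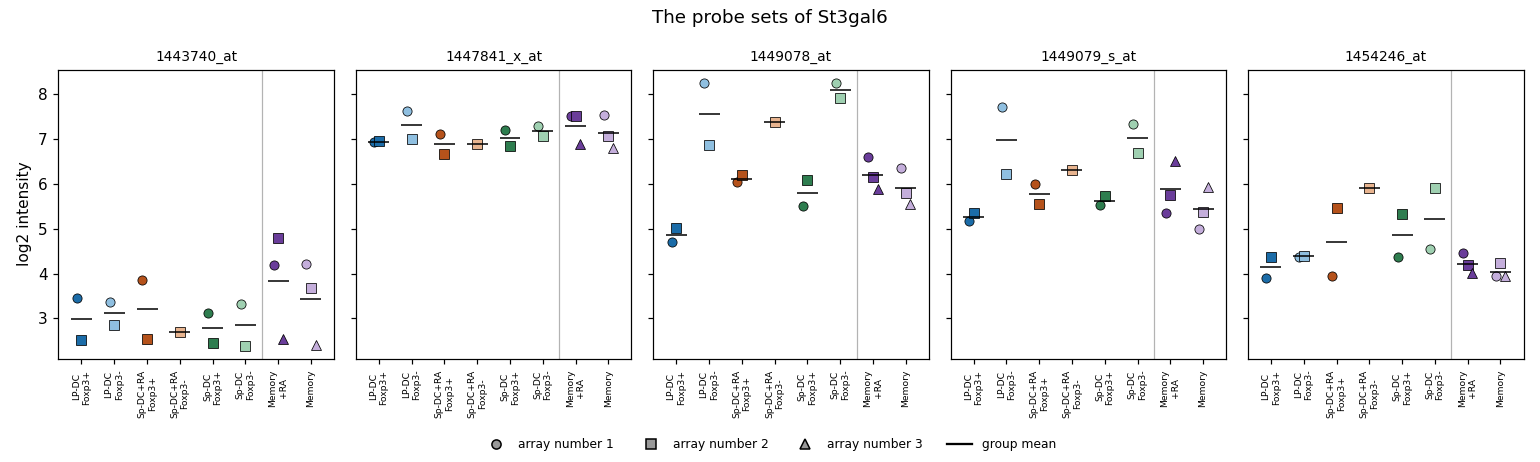
Log2 intensity of the 5 probe sets of St3gal6 on the 17 arrays, on 1 vertical scale. Points are arrays, bars group means. In 2 panels (1449078_at and 1449079_s_at) every Foxp3+ array of a culture lies under its Foxp3- arrays, and the cross-hybridizing panel (1447841_x_at) is level at 6.66 to 7.62.

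St3gal2, which puts alpha-2,3-linked sialic acid on the core of O-glycans and on gangliosides, was higher with RA in Foxp3+ cells. Its strongest probe set (1421892_at) read 7.21 and 7.04 with LP-DC, 7.35 and 7.44 with Sp-DC plus RA, and 6.57 and 6.12 with Sp-DC, where the RA difference was 1.05 (2.06-fold) and that of LP-DC over Sp-DC 0.78 (1.71-fold). In Foxp3- cells only the culture with RA stood apart, with 6.87 on its 1 array, against 6.33 and 6.41 with LP-DC and 6.50 and 6.17 with Sp-DC. Memory cells read 7.40, 8.0 and 6.60 with RA, against 6.79, 7.16 and 6.52 without it, and these groups overlap although each pair of arrays was higher with RA (0.08 to 0.84). A second probe set (1421891_at) differed by 1.30 for RA in Foxp3+ cells and 0.40 in memory cells, and the third lay under the array median. With the mean of all 3, LP-DC over Sp-DC in Foxp3+ cells was 0.49 and RA 0.80.

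St6gal1, which makes alpha-2,6-linked sialic acid on N-glycans, the ligand of the B cell receptor CD22, fell with RA in memory cells and passed in no comparison of the co-culture. It (1420928_at) read 9.87, 10.16 and 9.89 in memory cells with RA, against 11.42, 11.65 and 11.62 without it. No array with RA came within 1 log2 unit of one without it, and the difference was -1.59 ± 0.13 SE in the paired fit (3.01-fold lower, limma adjusted p = 0.000195), which remained called without any 1 of the 6 arrays. In the unpaired fit the same difference had an SE of 0.18 and narrowly missed the threshold (adjusted p = 0.0603). In this comparison 2 of the 5 tested members passed paired and 0 unpaired, where 5.15% of all genes were called paired and 0.0987% unpaired. An unadjusted p under 0.05 unpaired was found for 2 of the 5 and for 504 of 12163 genes.

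In the co-culture St6gal1 ranged only between 12.82 and 13.37. Foxp3+ cells read 13.20 and 12.86 with LP-DC, 12.97 and 13.16 with Sp-DC plus RA, and 13.37 and 13.22 with Sp-DC, and the RA difference there was -0.23 ± 0.15 (adjusted p = 0.580 paired). Foxp3- cells read 12.97 and 12.82 with LP-DC, 13.11 with Sp-DC plus RA, and 12.82 and 12.86 with Sp-DC. The RA effects of memory and Foxp3+ cells differed by -1.36 ± 0.19 in a joint fit (adjusted p = 0.00339 paired and 0.0871 with an SE of 0.24 unpaired, 1.48% of all genes called paired). The memory culture lasted 48 hours and held naive cells and beads, the Foxp3+ one lasted 5 days and held DC, so the cell type cannot be told apart from the culture. A second probe set (1420927_at) stayed between 5.70 and 7.0. In memory cells its mean was 6.34 with RA and 6.33 without it, so the fall of the gene rests on 1 of its 2 probe sets. Of the 3 promoter windows of St6gal1, the one with the most hexamers, printed in capitals, is at chr16:23290220-23290519 on the plus strand, and they begin at -175, -101 and 12 from the start. It is printed for comparison with the window of St8sia6.
St6gal1: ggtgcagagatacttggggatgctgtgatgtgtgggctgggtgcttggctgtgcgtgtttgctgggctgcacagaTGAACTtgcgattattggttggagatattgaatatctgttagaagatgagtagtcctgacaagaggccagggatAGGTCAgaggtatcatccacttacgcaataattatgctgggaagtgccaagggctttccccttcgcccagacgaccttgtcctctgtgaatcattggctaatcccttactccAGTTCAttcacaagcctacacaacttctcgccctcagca

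**Figure D3:**
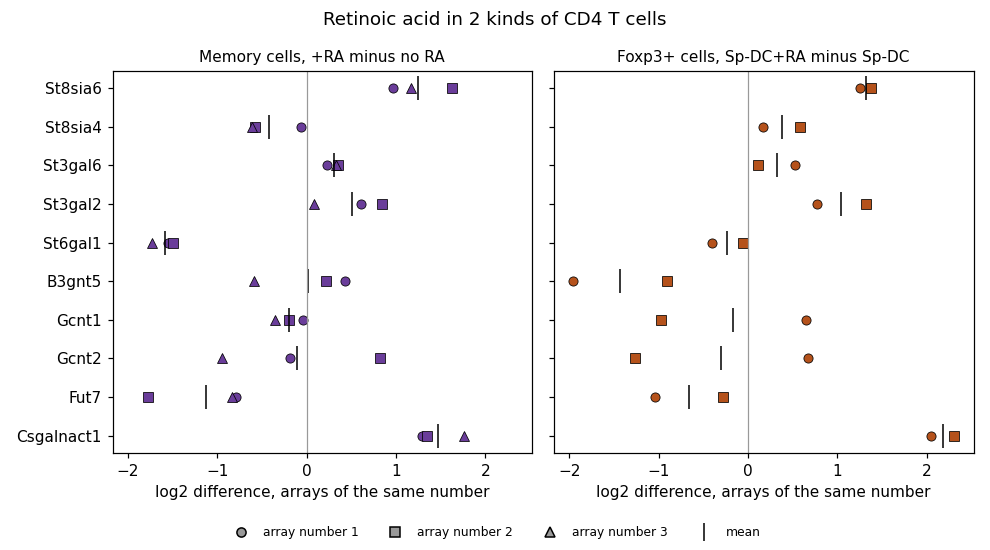
Log2 difference between arrays of the same number for the 10 genes, with RA minus without it, in memory cells (left) and in Foxp3+ cells of the Sp-DC cultures (right). Points are pairs of arrays, bars the mean, and St3gal6 is shown by 1449078_at. St6gal1 lay below -1 in each of the 3 memory pairs and at -0.40 and -0.06 in the Foxp3+ pairs, whereas St8sia6, Csgalnact1, St3gal2 and St3gal6 were above 0 in every pair of both panels.

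Fut7, the fucosyltransferase that completes sialyl Lewis x, also fell with RA in memory cells, where it read 6.28, 5.58 and 5.75, against 7.07, 7.35 and 6.58 without RA (-1.13 ± 0.19, 2.19-fold lower, limma adjusted p = 0.00922 paired). It did not pass unpaired (adjusted p = 0.442), and the paired call was lost without Memory 3 or MemoryRA 3 (highest adjusted p = 0.0638). In Foxp3+ cells it read 6.80 and 6.94 with LP-DC, 5.78 and 6.14 with Sp-DC plus RA, and 6.82 and 6.42 with Sp-DC. It was higher with LP-DC than with Sp-DC plus RA (0.91 ± 0.19, 1.87-fold, limma adjusted p = 0.0467 paired and 0.332 unpaired). Leaving out any of the arrays compared ended this call. It held in 5 of 11 fits with 1 array left out, each lacking an array outside the comparison. In that comparison Fut7 was 1 of the 5 tested members called paired, where 1.83% of all genes were called. Unpaired, 0 of the 5 were called, against 0.0921% of all genes. An unadjusted p under 0.05 unpaired was found for 2 of the 5 and for 692 of 11940 genes. RA in Foxp3+ cells gave -0.66 ± 0.19 and did not pass (adjusted p = 0.165 paired). Foxp3- cells read 5.92 and 6.27 with LP-DC, 5.87 with Sp-DC plus RA, and 6.01 and 6.32 with Sp-DC.

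Fut7 has 2 promoter windows. The one with hexamers, in capitals, is printed because the gene fell with RA like St6gal1. The window of B3gnt5, which was lower with RA in the co-culture, holds no such hexamer, and neither does another window of St6gal1. Whether hexamers go with the direction of the RA difference was not tested. The Fut7 window is described next. It lies at chr2:25423444-25423743 on the plus strand, with hexamers at -62 and -27.
Fut7: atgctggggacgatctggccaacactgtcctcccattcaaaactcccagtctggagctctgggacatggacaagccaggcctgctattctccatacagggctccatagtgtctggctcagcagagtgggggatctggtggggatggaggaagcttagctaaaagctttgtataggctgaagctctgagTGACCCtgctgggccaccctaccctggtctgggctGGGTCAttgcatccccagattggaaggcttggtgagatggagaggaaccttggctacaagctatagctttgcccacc

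B3gnt5, which starts the lacto-series chains of glycolipids, was lower with RA in the co-culture. It (1420994_at) read 7.23 and 7.92 in Foxp3+ cells with LP-DC, 5.36 and 6.24 with Sp-DC plus RA, and 7.32 and 7.15 with Sp-DC. The RA group lay under both others, with a difference of -1.43 from Sp-DC (2.70-fold lower), and LP-DC exceeded it by 1.77 (3.42-fold). Foxp3- cells read 7.15 and 7.82 with LP-DC, 5.66 with Sp-DC plus RA, and 7.45 and 7.46 with Sp-DC. Both Foxp3+ arrays with RA are themselves spread, so that without number 1 the RA difference is -0.99 and without number 2 it is -1.88. In memory cells the values were 6.53, 6.30 and 6.58 with RA, against 6.09, 6.09 and 7.17 without it, and the groups overlap. The other probe set (1420993_at) read 2.45 to 3.13, under the array median on every array. Its means in Foxp3+ cells were 2.73 with Sp-DC plus RA and 2.66 with Sp-DC. The lower level of the gene with RA therefore rests on 1 of its 2 probe sets.

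Gcnt1, which makes the core 2 branch of O-glycans on which sialyl Lewis x is carried by PSGL-1, had values near or under the array median in part of the groups. Foxp3+ cells read 5.00 and 4.35 with LP-DC, 6.22 and 5.70 with Sp-DC plus RA, and 5.58 and 6.68 with Sp-DC. Foxp3- cells read 5.73 and 5.58 with LP-DC, 6.15 with Sp-DC plus RA, and 6.65 and 6.77 with Sp-DC. In both sorts the LP-DC arrays lay under those with Sp-DC, but neither difference passed (-1.46 ± 0.34, adjusted p = 0.0610 paired and 0.359 unpaired in Foxp3+ cells, and -1.05 ± 0.34, adjusted p = 0.156 paired in Foxp3- cells). In these comparisons 0 of the 5 tested members passed in either fit, where 1.44% and 0.586% of all genes were called paired and 0% unpaired (with an unadjusted p under 0.05 unpaired, 959 and 795 of all genes and 2 and 1 of the 5). In memory cells Gcnt1 read 4.57, 5.01 and 6.76 with RA, against 4.61, 5.20 and 7.12 without it. It was lower with RA in all 3 pairs (-0.20 ± 0.13, adjusted p = 0.542 paired), by less than the spread between array numbers.

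Gcnt2, which makes the I branch of poly-N-acetyllactosamine, differed widely between array numbers in each of the 7 groups with more than 1 array. Foxp3+ cells read 12.51 and 10.18 with LP-DC, 12.81 and 9.43 with Sp-DC plus RA, and 12.14 and 10.70 with Sp-DC. Foxp3- cells read 12.56 and 10.37 with LP-DC, 9.79 on array 2 with Sp-DC plus RA, and 12.38 and 10.92 with Sp-DC. In memory cells the arrays numbered 3 were low, with 11.77, 12.22 and 8.50 with RA, against 11.96, 11.41 and 9.44 without it. No difference of Gcnt2 passed in either fit, both of which used its strongest probe set (1437607_at). Another of its 8 probe sets (1425503_at) followed the cultures and the sort instead. In Foxp3+ cells it read 6.84 and 6.48 with LP-DC, 8.01 and 8.64 with Sp-DC plus RA, and 7.41 and 7.91 with Sp-DC. Foxp3- cells lay higher in each culture, without overlap, at 7.43 to 7.58, 9.52 and 8.19 to 8.56 in that order. A further one (1438660_at) had Foxp3+ means of 6.39, 6.79 and 6.60 in that order. Both were singled out after their values were seen and were not tested by themselves. The probe sets of Gcnt2 therefore disagree, and its level is given for the strongest one.

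Csgalnact1, which adds the first N-acetylgalactosamine of a chondroitin chain, was higher in Foxp3+ cells and in memory cells when RA was present. It read 6.84 and 6.14 in Foxp3+ cells with LP-DC, 7.81 and 7.01 with Sp-DC plus RA, and 5.76 and 4.70 with Sp-DC, and memory cells read 6.07, 6.08 and 5.83 with RA, against 4.77, 4.74 and 4.07 without it. The RA differences were 2.18 in Foxp3+ cells (4.53-fold) and 1.47 in memory cells (2.77-fold), and arrays with and without RA do not overlap in either. In Foxp3- cells it read 5.25 and 4.11 with LP-DC, 5.04 with Sp-DC plus RA, and 5.10 and 5.04 with Sp-DC, all under the array median. Thus Foxp3+ cells exceeded Foxp3- cells by 1.81 with LP-DC and by 2.37 with Sp-DC plus RA, and by 0.16, with overlapping arrays, with Sp-DC. Where the lower group lies under the array median these differences may be understated. All these values are those of the probe set 1452366_at. The other one (1452365_at) read 3.71 to 4.65, under the array median on every array. Its means were higher with RA too, but by less. They were 4.44 with Sp-DC plus RA against 4.03 with Sp-DC in Foxp3+ cells, and 4.14 against 3.78 in memory cells. The size of the RA differences therefore rests on 1 of the gene's 2 probe sets.

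The genes whose levels followed each of the described members most closely over the 11 co-culture arrays were named by Pearson's r, as a description of arrays that share cultures and numbers. They were A630023P12Rik (0.97), Ddx46 (0.97) and Taf2 (0.96) for St8sia6, Padi2 (0.97), Lypd6b (0.96) and Acpp (0.96) for St3gal6, and Bmpr2 (0.96), Mmd (0.95) and Nipal1 (0.94) for St3gal2. For B3gnt5 they were 1700097N02Rik (0.94), Snw1 (0.92) and Il18r1 (0.91), and for Csgalnact1 Sall2 (0.92), Nbdy (0.90) and Tcf24 (0.90). Ddx46 spanned only 8.75 to 9.50 and Taf2 8.30 to 8.97 where St8sia6 spanned 8.34 to 11.72. Among the 10 genes themselves the closest pair was St3gal2 with Csgalnact1 (0.87), and the most opposed was St8sia4 with Gcnt1 (-0.83).

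Beside these 10, 151 other glycan genes were listed in 10 groups by function, 144 of them with a named probe set. The lists too were made with earlier results of these data known. They hold 143 genes of glycan synthesis, supply and removal and 8 listed as carriers of selectin ligands. Of the 144, 101 passed the filter in the memory experiment and 106 in the co-culture. With RA in memory cells 4 of the 101 rose and 3 fell in the paired fit (6.93%, against 5.15% of all genes), and 0 passed unpaired (limma, 5 with an unadjusted p under 0.05). Without the list of carriers 6 of 94 were called paired (6.38%). With 1 array left out the paired count ran from 2 of 214 genes called in all, without Memory 3 or MemoryRA 3, to 9 of 835, without Memory 1. The median difference was -0.01 over the 101 genes and 0.00 over all genes. Fut4, the other fucosyltransferase of sialyl Lewis x in leukocytes, read 6.69, 6.51 and 6.48 with RA, against 8.09, 8.88 and 7.72 without it. It fell (-1.67 ± 0.21, 3.19-fold lower, adjusted p = 0.00162 paired and 0.182 unpaired) and remained called without any 1 array.

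Chst11, a sulfotransferase of chondroitin, read 7.84, 8.43 and 8.05 in memory cells with RA, against 6.65, 6.57 and 6.37 without it. It rose (1.57 ± 0.15, 2.98-fold, adjusted p = 0.00045 paired and 0.0925 unpaired) and also remained called without any 1 array. Mgat5, which makes a branch of complex N-glycans, rose by less (0.86), as did Selplg, which encodes PSGL-1 (0.60), and Papss2, which makes the sulfate donor (0.56). Dsel (-0.59), an epimerase of dermatan sulfate, and B4galt5 (-0.55), a galactosyltransferase, fell. Each of these 5 calls was lost without Memory 3 or MemoryRA 3, as well as without further arrays for Selplg, Dsel and B4galt5. The arrays with and without RA overlap for Papss2 and Dsel. No gene of the lists of other sialyltransferases, sialic acid supply, O-glycan cores or glycolipid cores passed.

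With RA in Foxp3+ cells 2 of 106 genes rose in the paired fit and none fell (1.89%, against 1.03% of all genes), and 0 passed unpaired (8 with an unadjusted p under 0.05, and 0.101% of all genes called). Of the 5 tested members 0 passed in either fit (2 with an unadjusted p under 0.05 unpaired, against 576 of 11940 genes). St6galnac3, a sialyltransferase of O-glycans and glycolipids, read 8.48 and 7.53 with Sp-DC plus RA, against 7.49 and 6.25 with Sp-DC (1.13 ± 0.19, adjusted p = 0.0225 paired), with arrays numbered 1 above those numbered 2 in both groups. Mgat4a, which makes another branch of N-glycans, read 9.11 and 9.39 with RA, against 8.43 and 8.55 without it (0.76 ± 0.13, adjusted p = 0.0322 paired). Leaving out any 1 of the 4 arrays compared ended both calls, and leaving out either LP-DC Foxp3+ array, which shares the fit, also ended that of Mgat4a.

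LP-DC gave counts among these genes that moved with single arrays. Against Sp-DC, Fut8, which adds the core fucose of N-glycans, fell in Foxp3+ cells (8.73 and 8.45 with LP-DC, 9.34 and 9.38 with Sp-DC, -0.77 ± 0.14), and Chst15, a sulfotransferase of chondroitin, fell in Foxp3- cells (6.13 and 6.73 with LP-DC, 6.96 and 7.72 with Sp-DC, -0.91 ± 0.16). These were 1 of 106 genes in each comparison in the paired fit (0.943%, against 1.44% and 0.586% of all genes), and 0 unpaired (limma, 15 and 11 with an unadjusted p under 0.05). With 1 array left out the paired counts ran from 0 to 6 in Foxp3+ cells, with 6 without Sp-DC Foxp3+ 1, and from 0 to 7 in Foxp3- cells, with 7 without either LP-DC Foxp3+ array. Against Sp-DC plus RA in Foxp3+ cells, Cmah, which turns sialic acid into its N-glycolyl form, rose (0.91), while Chst15 (-1.05), the chondroitin polymerase Chsy1 (-0.91) and Gmds (-0.88), which starts the making of the fucose donor, fell. They were 4 of 106 in the paired fit (3.77%, against 1.83%, and 0 to 4 with 1 array left out) and 0 unpaired (9 with an unadjusted p under 0.05). All 6 calls were lost when 1 or another of the arrays compared was left out.

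Among the other glycan genes the Foxp3 sort gave the most calls. Over the mean of the 3 cultures, 2 of 106 genes rose and 10 fell in Foxp3+ cells in the paired fit (11.3%, against 4.75% of all genes), and 1 rose and 1 fell unpaired (1.89%, against 0.896% of all genes). The carriers supplied 3 of the 12 paired calls, and without them 9 of 100 genes were called (9%). With 1 array left out the paired count ran from 7, without LP-DC Foxp3+ 2 or Sp-DC Foxp3- 1, to 11. Of the 5 tested members 0 passed in either fit, with Fut7 closest (0.47 ± 0.12, limma adjusted p = 0.0606 paired). An unadjusted p under 0.05 unpaired was found for 3 of the 5 and for 946 of 11940 genes. Cd24a, which encodes a mucin-like selectin ligand carrier, read 11.40 and 9.59 in Foxp3+ cells, against 6.42 and 6.66 in Foxp3- cells, with LP-DC, 11.54 and 11.18 against 8.95 with Sp-DC plus RA, and 12.08 and 10.40 against 8.40 and 9.40 with Sp-DC. It rose by 2.81 ± 0.36 (7.03-fold, adjusted p = 0.0022 paired and 0.0277 unpaired). St8sia1, the GD3 synthase, which adds alpha-2,8-linked sialic acid to gangliosides, read 8.84 and 8.74 in Foxp3+ cells, against 9.71 and 9.58 in Foxp3- cells, with LP-DC, 8.91 and 9.02 against 9.74 with Sp-DC plus RA, and 8.63 and 8.54 against 9.55 and 9.04 with Sp-DC. It fell by 0.80 on the log2 scale (SE 0.10, adjusted p = 0.00153 paired and 0.0277 unpaired).

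The other large falls in the paired fit were those of Hs3st3b1 (-0.82), a sulfotransferase of heparan sulfate, Chsy1 (-0.76) and Cmah (-0.74), and the other rise was that of Chst15 (0.65). These 4, with Cd24a and St8sia1, remained called without any 1 of the 10 arrays whose absence leaves all 3 cultures. Of the 6 smaller falls, named here after their values were seen, Emb (-0.51), a cell adhesion protein, did so too, while Galnt9 (-0.67), B4galnt1 (-0.56), Dsel (-0.41), Mgat4a (-0.36) and Cd44 (-0.36) did not. For Cd24a, St8sia1 and Hs3st3b1 no Foxp3+ array of any culture overlapped a Foxp3- array of any culture. Within each culture those of Chsy1, Cmah, Emb and Galnt9 did not overlap either. The share of all genes without such overlap is not given here. The summed CD8 T and NK cell markers, which were lower in Foxp3+ cells as given beside St3gal6, moved with these falls, and their part in them was not tested. Chst15 read 7.38 and 7.60 in Foxp3+ cells, against 6.13 and 6.73 in Foxp3- cells, with LP-DC, 8.12 and 8.94 against 8.38 with Sp-DC plus RA, and 7.45 and 8.11 against 6.96 and 7.72 with Sp-DC, so that its arrays do not overlap with LP-DC and overlap in the other cultures.

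**Figure D4:**
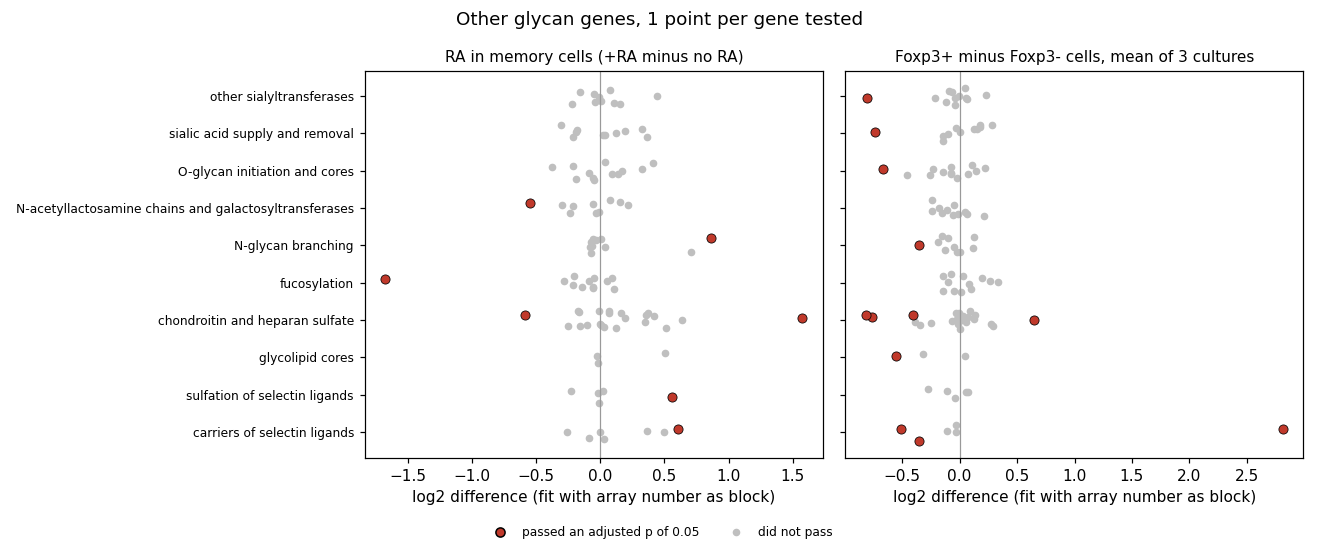
Log2 difference in the paired fit (horizontal axes) of the other glycan genes tested, 1 point per gene, by functional list, for RA in memory cells (left, 101 genes) and for Foxp3+ minus Foxp3- cells over the 3 cultures (right, 106 genes). Large points passed an adjusted p of 0.05, 7 on the left and 12 on the right, where Cd24a lies at 2.81, and small points did not.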

How the data were processed

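RNA of sorted, pooled mouse CD4 T cells was amplified in 2 rounds and hybridized to Affymetrix whole-genome mouse arrays, per the labels. The deposited table holds linear intensity values of 45101 probe sets on 17 arrays, made by the authors with RMA in GenePattern, per the series' design text. No source used here gives the RMA version, or says whether RMA was run once over both experiments. Values ran from 4.06 to 27165. Log2 was taken without a pseudocount and nothing was normalized further.

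The platform's gene table gives 34958 probe sets 1 symbol, 932 several and 9211 none, and the probe set with the highest mean log2 stands for its gene. For St3gal6 this rule takes the flat 1447841_x_at, so its values are given for every probe set. Tests covered genes whose value exceeded the median of the array on 2 or more arrays of an experiment, which are 11940 genes for the co-culture and 12163 for memory cells. Each experiment had its own limma 3.58.1 model (R 4.3.3) of group means with empirical Bayes. P-values were adjusted by Benjamini-Hochberg across every tested gene and read against 0.05. The 6 comparisons were RA in memory cells, RA in Foxp3+ cells, LP-DC over Sp-DC in each sort, LP-DC over Sp-DC plus RA in Foxp3+ cells, and Foxp3+ over Foxp3- cells as the mean of 3 cultures. The unpaired fit of each experiment was tested on simulated data, in which differences of 3 log2 units were planted. These data had no effect of array number, so they do not check the paired fit.

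The labels number the arrays. After group means were removed, arrays of the same number correlated at 0.45 to 0.76 over 10 pairs of co-culture groups (with 2 arrays in a group, numbers 1 and 2 share one correlation) and at 0.66 to 0.94 in the memory experiment, with 3 numbers. The numbers were therefore taken to pair the arrays, although the fit without them was the planned one. Residual and prior degrees of freedom were 5 and 3.13 in the co-culture and 4 and 2.61 in the memory experiment, and 4 and 5.47 and 2 and 7.16 with the number as a block.

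Named are all 10 members in every comparison, other glycan genes that passed in either fit (up to 4 per direction and comparison, by size), and the 3 genes most correlated with each described member. The members and the gene lists were chosen with earlier results of these data known. Sequences are RefSeq's (GRCm38.p6), and St3gal2 and Csgalnact1 have no window in the table used. The settings varied were the normalization (quantile, median-centring), the filter (none, the 60th percentile), the probe sets (mean of all), the block, and the arrays (1 left out at a time). Added after seeing the data were _x_at probe sets passed over, both memory arrays numbered 3 left out, the block with each array left out and a joint fit over all arrays.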

Additional observations from a re-analysis of the deposited data

Results flagged for a closer look

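The RA effect on St6gal1 differed between memory and Foxp3+ cells by -1.36 on the log2 scale (SE 0.19, limma joint fit with the array number as a block, adjusted p = 0.00339, and 0.0871 without it). The gene was lower with RA in 3 of 3 memory pairs and in 2 of 2 Foxp3+ pairs, by a mean of -1.59 in memory and -0.23 in Foxp3+ cells. The cell type cannot be told apart from the length and kind of culture.

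The Foxp3 sort of St8sia6 ran in opposite directions, with both LP-DC pairs below 0 and both Sp-DC pairs above 0, and LP-DC minus Sp-DC came to -0.71. The Foxp3 sort of B3gnt5 did the reverse, with LP-DC pairs at 0.08 and 0.11 and Sp-DC pairs at -0.14 and -0.31, a difference of 0.31. Neither difference was tested, since both genes had been picked for their values, and the groups overlap for St8sia6 in both cultures and for B3gnt5 with LP-DC.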

How the results depend on the processing

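Counts of calls changed with the array number and with single arrays. With the number as a replicate block the counts of genes called were 123 for RA in Foxp3+ cells, 172 for LP-DC over Sp-DC in Foxp3+ and 70 in Foxp3- cells, 219 for LP-DC over Sp-DC plus RA, 567 for the Foxp3 sort and 626 for RA in memory cells, against 12, 0, 0, 11, 107 and 12 unpaired (limma; where 0 passed, 959 and 795 genes had p under 0.05 before adjustment). The counts of other glycan genes were 2, 1, 1, 4, 12 and 7 with the block, in the same order, against 2 for the sort and 0 for the rest unpaired. Quantile normalization gave 18 genes for LP-DC over Sp-DC plus RA. Without both memory arrays numbered 3 the count for RA in memory cells was 232 genes and 2 glycan genes unpaired and 221 genes and 2 glycan genes with the block. With 1 array left out, unpaired counts ran from 3 to 16 for RA in Foxp3+ cells, 2 to 16 for LP-DC over Sp-DC plus RA, 3 to 95 for the sort and 3 to 11 for RA in memory cells. They stayed at 0 for LP-DC over Sp-DC in both sorts. The sort has no value without the 1 Foxp3- array with RA. Its glycan genes ran from 0 to 2 and those of the other comparisons stayed at 0. With the block and 1 array left out, counts ran from 43 to 160 for RA in Foxp3+ cells, 2 to 435 and 0 to 229 for LP-DC over Sp-DC in Foxp3+ and Foxp3- cells, 45 to 259 for LP-DC over Sp-DC plus RA, 331 to 579 for the sort and 214 to 835 for RA in memory cells, and those of other glycan genes from 0 to 2, 0 to 6, 0 to 7, 0 to 4, 7 to 11 and 2 to 9 in that order. Of the tested members, St6gal1 with RA in memory cells passed unpaired without the filter (adjusted p = 0.0497) and without both arrays numbered 3 (adjusted p = 0.0105). Over these alternatives 475 of 504 values of the tested members kept their direction. The 29 that turned were of differences that had passed in neither fit, and the cause was not tested. With the mean of all probe sets, LP-DC over Sp-DC in Foxp3- cells became -0.00015 for St6gal1 and -0.0094 for St8sia4, and LP-DC over Sp-DC plus RA became 0.016 for St6gal1. Gcnt2 became -0.035 for the sort with the block and 0.31 for RA in memory cells without both arrays numbered 3. With 1 array left out Gcnt2 ran from -1.99 to 1.40 for RA in Foxp3+ cells, -1.24 to 1.09 and -1.28 to 0.91 for LP-DC over Sp-DC in Foxp3+ and Foxp3- cells, -1.47 to 1.91 for LP-DC over Sp-DC plus RA, -0.24 to 0.89 for the sort and -0.85 to 1.06 for RA in memory cells. Gcnt1 ran from -0.72 to 0.38 for RA in Foxp3+ cells and from -0.71 to 0.24 for RA in memory cells, where it failed the filter without either array numbered 3. Fut7 ran from -0.25 to 0.11 and St6gal1 from -0.020 to 0.13 for LP-DC over Sp-DC in Foxp3- cells, and St6gal1 from -0.21 to 0.14 for LP-DC over Sp-DC plus RA. St3gal6 moved by its probe set, with -2.08 for the sort when _x_at probe sets were passed over and -0.80 for the mean of all 5. St3gal2 with the mean of all 3 gave 0.49 for LP-DC over Sp-DC and 0.80 for RA in Foxp3+ cells. The block changed no other call of a tested member than those of St6gal1 and Fut7 given in the report. Groups of 1 to 3 pooled arrays limit all of these values, and genes under the array median have differences that may be understated.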
